A study of Mus musculus with 8 samples.

Results

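The genes that encode WNT ligands, their receptors and the secreted proteins that modulate them were read in lung cells of tumor-bearing mice. The RNA came from cells gated as non-hematopoietic and sorted by protease activity. Members were taken by symbol: the Wnt, Fzd, Sfrp, Dkk and Rspo families together with Frzb, Wif1, Axin2, Lgr4, Lgr5, Lgr6, Lrp5 and Lrp6. This rule was set with earlier results of these data known. The rule found 50 of the 27179 genes in the deposited table, of which 25293 had a symbol. Of the 50, 49 were protein-coding genes and 1, Fzd10os, was a noncoding antisense transcript whose name begins with the letters of the Fzd family. By role they were 19 ligands, 10 Frizzled receptors, 2 co-receptors, 4 R-spondins, 3 R-spondin receptors, 6 secreted proteins that bind WNT, 4 Dickkopf genes, 1 feedback target (Axin2) and the antisense transcript.

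Cells came from the lungs of female Eml4-Alk mice (strain label C57BL/6, given in the methods as C57BL/6J) aged 18 to 22 weeks, 11 to 12 weeks after an adenovirus with Cas9 and guide RNAs had rearranged Eml4 and Alk in the lung and started tumors. Every mouse had received 4.5 nmol of QZ1-(PEG2K) into a vein, a quenched Cy5 probe that becomes fluorescent and binds nearby cells when proteases cut its S1 linker, and the lungs were removed after 2 h. Viable cells lacking CD45 and CD11b, which mark blood lineages, were sorted by probe signal, gated against the epithelial protein EpCAM, into a QZ1-hi and a QZ1-lo population of at least 100000 cells each, with 4 libraries per population. The comparison asks which genes differ between cells with high and low protease activity on the probe. Tumor genotype and probe were shared by both populations, so that the contrast is between cells of diseased lungs. The labels do not say which population holds the tumor cells, and the methods give no direct check of the purity of either fraction. Libraries are described as biological replicates, and no source used here states which libraries of the populations came from the same mouse. Their numbers below follow the order of the samples and were not used as pairs.

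WNT proteins are secreted lipid-modified ligands that bind Frizzled receptors. In the canonical branch they bring Frizzled together with the co-receptors LRP5 or LRP6, which stabilizes beta-catenin and switches on target genes, among them Axin2, whose product feeds back to limit the pathway. Other ligands act through Frizzled and the receptors ROR and RYK on cell shape and polarity. R-spondins, through LGR receptors, protect Frizzled from removal by the ubiquitin ligases RNF43 and ZNRF3 and so raise sensitivity to WNT, whereas secreted Frizzled-related proteins (SFRP) and WIF1 bind the ligand and several Dickkopf proteins block LRP5 and LRP6. In the lung, WNT exchange between epithelium and the mesenchyme around it shapes development and the upkeep of the alveoli.

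Total counts per library ranged from 18380918 to 26847938 and did not separate the populations (two-sided exact permutation test over 70 assignments, p = 0.943). Mitochondrial and ribosomal RNA genes took 43.7 to 65.6% of counts in QZ1-hi and 34.0 to 53.2% in QZ1-lo. Levels are given as CPM, counts relative to the TMM-scaled library size, and 3 counts, taken as the floor, corresponded to 0.0894 to 0.179 CPM. These floors cover counting error only. Markers of cell types differed between the populations, and none of the 61 markers listed was at 0 in all libraries. The summed CPM of 8 endothelial markers was 918 to 2166 in QZ1-hi and 65.9 to 288 in QZ1-lo, and that of 8 fibroblast markers was 1638 to 3189 and 39.2 to 365. In the other direction, 5 general epithelial markers summed to 473 to 758 CPM in QZ1-hi and 1290 to 1758 in QZ1-lo. Alveolar type 2 markers were abundant on both sides, at 5544 to 10125 and 4186 to 6563 CPM. The 6 hematopoietic markers summed to 254 to 766 CPM in QZ1-hi and 343 to 1340 in QZ1-lo, and none of them passed the test. Of that sum, Hba-a1, a hemoglobin gene of red cells, which the CD45 and CD11b gate does not remove, made up 42.9 to 313 CPM and 95.2 to 990.3 CPM. Ptprc, the gene of CD45, was at 71.4 to 222 and 93.4 to 161 CPM. Itgam, the gene of CD11b, was at 29.4 to 54.8 and 42.4 to 50.4 CPM, and Cd68 at 84.6 to 175 and 54.6 to 139 CPM. RNA of both gated genes was thus present in both populations. In bulk RNA of this kind, fewer cells of a type and less RNA per cell cannot be told apart.

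Of the 50 genes, 30 passed the filter on low counts and were tested among 15583 genes with edgeR's quasi-likelihood test, at a Benjamini-Hochberg adjusted p under 0.05. In QZ1-hi, 12 were higher and 3 were lower, while 15 did not pass. Over all genes tested, 18.1% passed in either direction, 9.88% higher and 8.21% lower. The tested WNT genes thus held a share called of 50%, and 20 of the 30 had an unadjusted p under 0.05, beside 28.9% of all genes. However, a gene can pass the filter through the population in which it is high, so that the 30 are not a neutral sample of the 50. Their median log2 fold change, QZ1-hi relative to QZ1-lo, was 0.90, beside 0.02 for all genes tested. Without TMM factors, which moves the median over all genes to -0.44, the 30 genes gave 10 higher and 5 lower calls, and all genes gave 882 higher and 2509 lower in place of 1540 and 1280. No overlap between the 4 libraries of each population was seen for 10 genes higher and 4 genes lower in QZ1-hi, where 22.6% of all genes tested did not overlap.

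**Figure D1:**
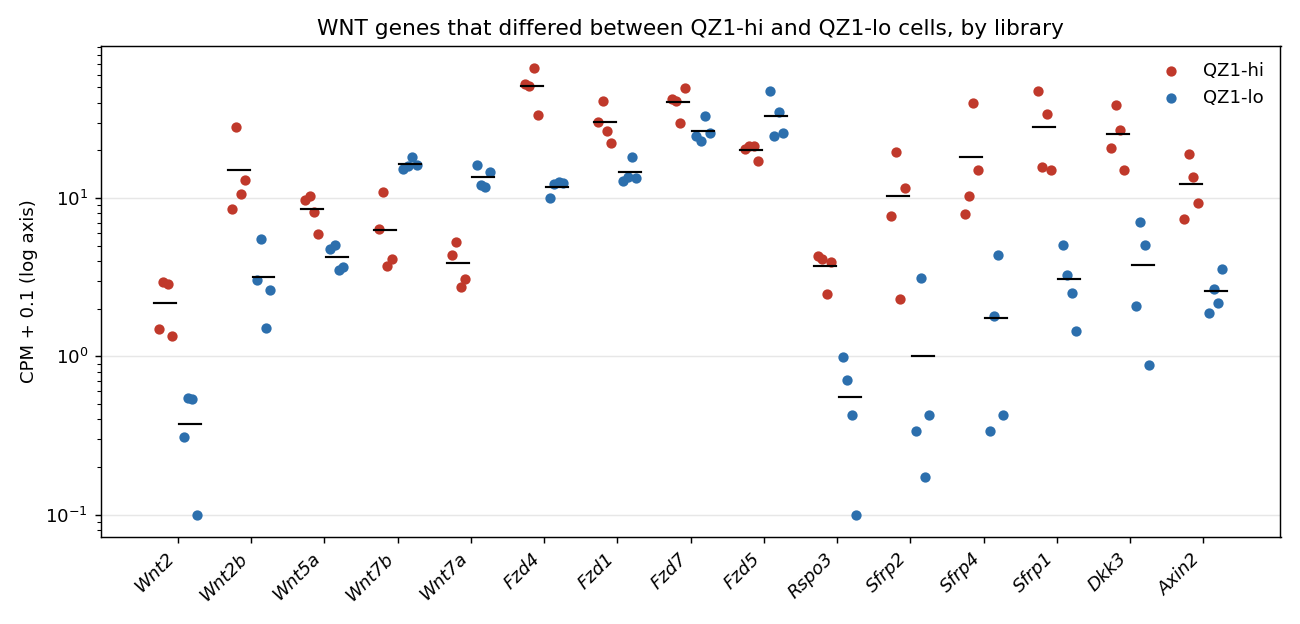
Each point is the level of a gene in 1 library, as CPM plus 0.1 on a log axis, for the 15 WNT genes with an adjusted p under 0.05, with QZ1-hi libraries in red, QZ1-lo libraries in blue and the mean of 4 libraries as a black line. The points of the populations are apart for each gene except Fzd7 and Sfrp2, and Wnt7a, Wnt7b and Fzd5 are those with the blue points on top.

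Start regions of 4 of these genes are shown, those with the smallest edgeR p in each direction among the called genes that had a RefSeq window. They are the receptor Fzd4 and the target gene Axin2, called higher, and the ligand Wnt7a and the receptor Fzd5, called lower. Sfrp1 and Wnt7b had a smaller p than Axin2 and Fzd5, but no window was at hand for them. Each run holds 250 bases before and 50 bases after a RefSeq start on GRCm38.p6, written 5′ to 3′ on the gene's strand, with CpG dinucleotides in capitals. The Axin2 run lies inside the annotated gene, which begins upstream at position 108917828, so that it shows a later start. Fzd4 lies at chr7:89404116-89404415 on the plus strand, Axin2 at chr11:108920099-108920398 on the plus strand, Wnt7a at chr6:91411304-91411603 on the minus strand and Fzd5 at chr1:64737701-64738000 on the minus strand.
Fzd4: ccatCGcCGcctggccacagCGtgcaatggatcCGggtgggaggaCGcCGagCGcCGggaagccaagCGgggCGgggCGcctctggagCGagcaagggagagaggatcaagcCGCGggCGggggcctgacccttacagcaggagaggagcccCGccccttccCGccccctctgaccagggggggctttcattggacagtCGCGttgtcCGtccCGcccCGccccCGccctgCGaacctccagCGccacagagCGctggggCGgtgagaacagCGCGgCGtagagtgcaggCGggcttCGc
Axin2: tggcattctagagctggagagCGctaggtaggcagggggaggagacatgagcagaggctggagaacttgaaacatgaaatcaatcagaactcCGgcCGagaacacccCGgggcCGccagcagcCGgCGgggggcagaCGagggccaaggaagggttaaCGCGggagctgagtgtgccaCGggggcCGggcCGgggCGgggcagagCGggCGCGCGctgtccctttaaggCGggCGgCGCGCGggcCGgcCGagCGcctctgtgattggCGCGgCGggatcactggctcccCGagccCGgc
Wnt7a: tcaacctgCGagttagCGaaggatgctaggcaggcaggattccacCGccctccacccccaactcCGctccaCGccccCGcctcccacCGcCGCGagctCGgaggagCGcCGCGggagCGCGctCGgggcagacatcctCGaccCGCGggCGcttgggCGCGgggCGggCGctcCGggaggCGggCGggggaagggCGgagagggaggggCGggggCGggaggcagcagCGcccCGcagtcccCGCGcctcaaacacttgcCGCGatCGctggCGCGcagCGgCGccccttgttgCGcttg
Fzd5: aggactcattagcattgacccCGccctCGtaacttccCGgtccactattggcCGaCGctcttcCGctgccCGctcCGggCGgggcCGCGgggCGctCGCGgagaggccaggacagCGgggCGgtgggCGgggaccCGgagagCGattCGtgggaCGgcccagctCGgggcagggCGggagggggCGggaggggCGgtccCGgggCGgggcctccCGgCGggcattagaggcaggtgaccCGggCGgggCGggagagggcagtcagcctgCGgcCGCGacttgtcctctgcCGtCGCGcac
These runs were rich in CpG in both directions of change, with 32 in Fzd4, 31 in Axin2, 42 in Wnt7a and 38 in Fzd5. RefSeq windows were held for 32 of the 50 genes, 35 windows in all, with a median of 26 CpG and 67.7% GC, beside 7 CpG and 52.7% GC over 32851 windows. The letters CTTTGAT or CTTTGAA, which TCF and LEF factors can bind, were searched on both strands. They occurred in 3 of the 35 windows, those of Wnt5b, Wnt11 and Dkk1 (8.57%), and in 8.65% of all windows. None of the 9 called genes with a window held these letters, which says only that they are absent from these 300 bases.

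Frizzled receptors went both ways. Fzd4 and Fzd1 were higher in QZ1-hi, Fzd7 was higher by a smaller margin, and Fzd5 was lower, while Fzd6, Fzd2, Fzd3 and Fzd8 did not pass the test. Fzd4 (Entrez 14366, chr7:89404366-89410110 in GENCODE M21 on GRCm38) is the receptor for Norrin as well as for WNT and is known for its part in blood vessel growth. It read 52.2, 50.9, 66.0 and 33.4 CPM in QZ1-hi libraries 1 to 4, and 9.93, 12.2, 12.5 and 12.3 CPM in QZ1-lo libraries 1 to 4. Its lowest QZ1-hi library stood well above its highest QZ1-lo library. The log2 fold change was 2.11 (SE 0.20), or 4.32-fold, with an edgeR adjusted p of 0.000218, and the gene ranked 24 of 15583 by p. All 8 endothelial markers passed as higher in QZ1-hi, and their sum was highest in the same library as Fzd4, QZ1-hi library 3. The fibroblast and pericyte sums were highest in that library too. QZ1-hi libraries 1 and 2 had endothelial sums of 1645 and 950 CPM, with Fzd4 at 52.2 and 50.9 CPM. Among the QZ1-lo libraries, library 3 had the highest endothelial, fibroblast and pericyte sums and the highest Fzd4, although Fzd4 differed little there from libraries 2 and 4. The part of any of these cells in the Fzd4 difference was not tested.

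Fzd1, which takes canonical ligands, read 30.3, 41.2, 26.4 and 22.2 CPM in QZ1-hi and 12.7, 13.6, 18.2 and 13.3 CPM in QZ1-lo. The libraries did not overlap, and the log2 fold change was 1.06 (SE 0.20, edgeR adjusted p = 0.00433). With scaling by library size only it was 0.59, with an edgeR adjusted p of 0.145 (7.75e-05 to 0.145 over its alternatives). Fzd7, also a receptor of canonical signaling, read 41.9, 41.1, 29.7 and 49.5 CPM in QZ1-hi and 24.5, 22.8, 32.9 and 25.6 CPM in QZ1-lo. Here the lowest QZ1-hi library, library 3, fell below the highest QZ1-lo library, also library 3. The log2 fold change of Fzd7 was 0.62 (SE 0.17, edgeR adjusted p = 0.0307). With single libraries left out, the call held for QZ1-hi library 3 and QZ1-lo library 3 alone, since leaving out any of the other 6 libraries gave edgeR adjusted p values of 0.0573 to 0.0886, and without TMM factors it was 0.761 (0.0111 to 0.761 over its alternatives).

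Fzd5, a receptor known from epithelia such as that of the gut, was the Frizzled gene lower in QZ1-hi. It read 20.4, 21.3, 21.1 and 17.0 CPM in QZ1-hi and 47.3, 24.5, 35.0 and 25.6 CPM in QZ1-lo, with the QZ1-hi libraries close together and the QZ1-lo libraries spread above them. It had a log2 fold change of -0.73 (SE 0.21, edgeR adjusted p = 0.0310). It lost the call without QZ1-hi library 1, 3 or 4 or QZ1-lo library 1 or 3, with edgeR adjusted p values of 0.0540 to 0.0911 (0.00513 to 0.0911 over its alternatives). An annotated gene on the opposite strand, Gm38058, covers 17.8% of the Fzd5 exons, and since the strand setting of the counting is not given in the sources used here, reads of the pair may be mixed. Fzd6, which is tied to planar cell polarity, read 17.7, 20.7, 26.1 and 17.6 CPM in QZ1-hi and 21.3, 22.9, 27.1 and 18.7 CPM in QZ1-lo. These values overlapped throughout, with a log2 fold change of -0.13 (SE 0.17, edgeR adjusted p = 0.685). The remaining tested receptors were lower in level, with means of 5.13 CPM in QZ1-hi and 3.28 in QZ1-lo for Fzd2, 4.20 and 5.85 for Fzd3, and 5.09 and 2.97 for Fzd8. Fzd8 was spread by QZ1-lo library 3 at 6.91 CPM. Without that library its log2 fold change of 0.78 became 1.62, with an edgeR adjusted p of 0.0126 (0.0126 to 0.669 over its alternatives). Fzd9 and Fzd10 were not tested, with at most 31 counts in any library.

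Both co-receptors were well expressed on both sides and neither passed the test. Lrp5 read 91.3, 68.4, 96.8 and 50.5 CPM in QZ1-hi and 54.6, 52.1, 65.2 and 43.5 CPM in QZ1-lo. This came to 0.51 on the log2 scale (SE 0.20, edgeR adjusted p = 0.114), and it passed without QZ1-hi library 4, at 0.70 with an edgeR adjusted p of 0.0135 (0.0135 to 0.828 over its alternatives). Lrp6 read 85.4, 77.5, 91.1 and 85.2 CPM in QZ1-hi and 73.7, 72.7, 77.6 and 74.9 CPM in QZ1-lo. Its QZ1-hi and QZ1-lo values nearly parted, yet the log2 fold change was only 0.18 (SE 0.10, edgeR adjusted p = 0.275) and was -0.28 with scaling by library size only, where the median of all genes was -0.44, so that it stayed above that median.

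**Figure D2:**
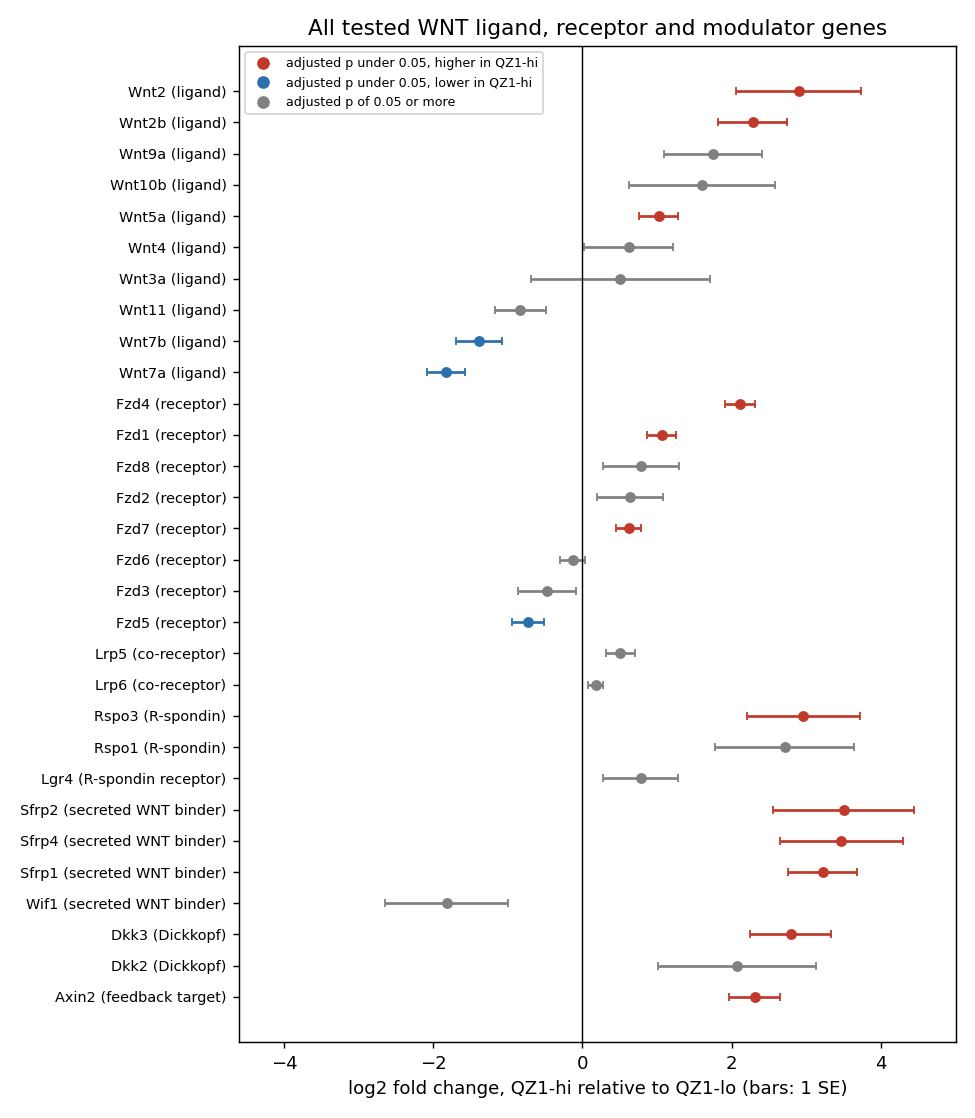
Log2 fold change of the 30 tested WNT genes, QZ1-hi relative to QZ1-lo, grouped by role, with bars of 1 SE. Red marks the 12 genes called higher, blue the 3 called lower and grey the 15 that did not pass, and the secreted modulators Sfrp1, Sfrp2, Sfrp4, Dkk3 and Rspo3 reach further to the right than the receptors.

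Ligands also went both ways, with 3 of the 10 tested genes higher and 2 lower. Wnt7a and Wnt7b were the ligands lower in QZ1-hi. Wnt7b is known as a ligand of the lung epithelium that signals to mesenchyme and vessels. Wnt7a (Entrez 22421) read 4.28, 5.19, 2.66 and 2.98 CPM in QZ1-hi and 16.0, 11.9, 11.6 and 14.5 CPM in QZ1-lo. Each QZ1-lo library was above the highest QZ1-hi library, and the level in QZ1-lo was 3.56-fold that in QZ1-hi, for a log2 fold change of -1.83 (SE 0.25, edgeR adjusted p = 0.000714). Wnt7b (Entrez 22422) read 6.27, 10.8, 3.64 and 4.05 CPM in QZ1-hi and 15.2, 15.9, 18.1 and 16.1 CPM in QZ1-lo. Its QZ1-lo libraries lay close together, and the QZ1-hi library nearest to them was library 2. The difference was -1.39 on the log2 scale (SE 0.31, edgeR adjusted p = 0.00877). AU022754, on the other strand, overlaps 6.61% of its exons. Lower in QZ1-hi beside these ligands were 4 of 5 alveolar type 1 markers, whose sum was 408 to 643 CPM in QZ1-hi and 794 to 965 in QZ1-lo, all 3 club cell markers, all 4 ciliated cell markers and all 5 general epithelial markers. The remaining alveolar type 1 marker, Pdpn, was higher, at 0.72 on the log2 scale (edgeR adjusted p = 0.0157), and of the 5 alveolar type 2 markers none was lower and Sftpc was higher, at 0.78 (edgeR adjusted p = 0.0231). The part of these cells in the ligand differences was not tested.

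Wnt2, Wnt2b and Wnt5a were higher in QZ1-hi. Wnt2 and Wnt2b come from the mesenchyme of the early lung, where they are needed to specify it, and Wnt5a is a ligand of noncanonical signaling. Wnt2b read 8.47, 27.9, 10.6 and 12.9 CPM in QZ1-hi and 2.92, 5.45, 1.41 and 2.54 CPM in QZ1-lo. Library 2 was the highest of each population. Wnt2b had a log2 fold change of 2.28 (SE 0.46, edgeR adjusted p = 0.00521). Wnt5a read 9.58, 10.2, 8.04 and 5.84 CPM in QZ1-hi and 4.68, 4.96, 3.40 and 3.56 CPM in QZ1-lo. This was 1.02 on the log2 scale (SE 0.26, edgeR adjusted p = 0.0172). The populations did not overlap, but without QZ1-hi library 2 the edgeR adjusted p was 0.0562 at 0.89, and without TMM factors it was 0.233 at 0.59 (0.00298 to 0.233 over its alternatives). Wnt2 was scarce, at 1.40, 2.86, 2.78 and 1.25 CPM in QZ1-hi and 0.209, 0.448, 0.434 and 0 CPM in QZ1-lo. Its log2 fold change of 2.90 (SE 0.84, edgeR adjusted p = 0.0336) held without QZ1-hi library 4, QZ1-lo library 3 or QZ1-lo library 4. Without any of the other 5 libraries the edgeR adjusted p was 0.0520 to 0.0951 (0.00101 to 0.0951 over its alternatives).

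The other tested ligands did not pass. Wnt11, a noncanonical ligand, had no overlap, at 1.74 to 5.88 CPM in QZ1-hi and 6.30 to 9.19 CPM in QZ1-lo, with a log2 fold change of -0.83 (SE 0.34, edgeR adjusted p = 0.131). It passed with scaling by library size only, at -1.36 and an edgeR adjusted p of 0.00865 (0.00865 to 0.262 over its alternatives). Wnt4 was spread by QZ1-hi library 2, at 23.6 CPM where the other QZ1-hi libraries had 3.43 to 4.29 and the QZ1-lo libraries 3.76 to 9.40. Its log2 fold change of 0.62 (SE 0.60, edgeR adjusted p = 0.558) became -0.57 without that library. Wnt9a read 1.61 to 5.43 CPM in QZ1-hi and 0.123 to 1.85 in QZ1-lo, with an edgeR adjusted p of 0.0975 and a DESeq2 adjusted p of 0.0381 (0.0381 to 0.256 over its alternatives). Wnt10b and Wnt3a stayed at or below 2.26 CPM in each library. Of the 9 ligands not tested, Wnt3 and Wnt16 had no count in any library and Wnt1, Wnt6, Wnt8a, Wnt8b, Wnt9b and Wnt10a had at most 40 counts in a library. Wnt5b, the remaining ligand, had 39, 18, 20 and 5 counts in QZ1-hi and 2, 3, 0 and 0 counts in QZ1-lo. Each QZ1-hi library of Wnt5b thus held more counts than each QZ1-lo library, but the gene was below the filter and has no value in the edgeR test.

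Among the R-spondins, Rspo3 was higher in QZ1-hi. Rspo3, an R-spondin known for its part in blood vessels, read 4.24, 4.05, 2.37 and 3.87 CPM in QZ1-hi and 0.894, 0.610, 0.326 and 0 CPM in QZ1-lo. Rspo3 had a log2 fold change of 2.96 (SE 0.76, edgeR adjusted p = 0.0201), and without QZ1-hi library 1 it was 2.88 with an edgeR adjusted p of 0.05001, just past the threshold (0.000169 to 0.05001 over its alternatives). A gene on the other strand, Gm48159, covers 13.1% of its exons. Rspo1 read 8.86, 26.2, 3.87 and 7.81 CPM in QZ1-hi and 1.10, 5.17, 0.905 and 0 CPM in QZ1-lo. The populations overlapped through library 2 of QZ1-lo and library 3 of QZ1-hi, and the log2 fold change of 2.71 (SE 0.93) did not pass, with an edgeR adjusted p of 0.0683. Without QZ1-lo library 2 it was 4.08, with an edgeR adjusted p of 0.0153, and without QZ1-hi library 2 it was 1.92, with an edgeR adjusted p of 0.240 (0.0146 to 0.240 over its alternatives). Rspo2 and Rspo4 had at most 4 counts in a library. Of the receptors for R-spondins, Lgr4 was tested, at 0.983 to 3.90 CPM in QZ1-hi and 1.02 to 1.74 CPM in QZ1-lo, and did not pass (log2 fold change 0.78, SE 0.50, edgeR adjusted p = 0.343). Lgr5, a marker of gut stem cells, had 44, 22, 0 and 7 counts in QZ1-hi and 4, 9, 1 and 5 in QZ1-lo, and Lgr6 had at most 9.

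Secreted proteins that bind WNT had a median log2 fold change of 3.35 over the 4 tested, with Wif1 at -1.82. The medians were 0.63 for the 8 tested receptors, 0.82 for the 10 tested ligands and 0.02 for all genes. These medians cannot rank the roles, since a gene can pass the filter through the population in which it is high. Sfrp2 and Sfrp4 needed their QZ1-hi libraries to pass, with QZ1-lo counts of 8, 74, 2 and 8 and of 8, 42, 118 and 8. Of the 4 tested binders, Sfrp1, Sfrp2 and Sfrp4 were higher in QZ1-hi, and Wif1 did not pass. Sfrp1 (Entrez 20377) read 47.6, 15.7, 33.8 and 14.9 CPM in QZ1-hi and 4.98, 3.17, 2.42 and 1.35 CPM in QZ1-lo. Its level in QZ1-hi was 9.32-fold that in QZ1-lo, for a log2 fold change of 3.22 (SE 0.46, edgeR adjusted p = 0.000860), and the populations did not overlap. Sfrp4 read 7.80, 10.2, 39.6 and 14.96 CPM in QZ1-hi and 0.239, 1.71, 4.27 and 0.327 CPM in QZ1-lo, with library 3 highest on both sides. Its log2 fold change was 3.47 (SE 0.82, edgeR adjusted p = 0.0122), 2.73 without QZ1-hi library 3 and 4.61 without QZ1-lo library 3, with the call held in both. Sfrp2 read 7.63, 19.3, 2.20 and 11.6 CPM in QZ1-hi and 0.239, 3.01, 0.0724 and 0.327 CPM in QZ1-lo. QZ1-lo library 2 overlapped QZ1-hi library 3, and the log2 fold change was 3.5 (SE 0.95, edgeR adjusted p = 0.0252). Without QZ1-lo library 2 it was 5.56, and without QZ1-hi library 2, QZ1-lo library 1 or QZ1-lo library 4 the edgeR adjusted p was 0.0774, 0.0629 and 0.0596 (0.00146 to 0.0774 over its alternatives). Gm26771, on the other strand, covers 16.1% of the Sfrp2 exons.

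Wif1, a WNT inhibitor that the study lists among markers of myofibroblasts, lay in the other direction, at 0, 0.790, 2.14 and 1.01 CPM in QZ1-hi and 3.67, 3.78, 4.60 and 1.76 CPM in QZ1-lo. QZ1-hi library 3 exceeded QZ1-lo library 4, and the log2 fold change of -1.82 (SE 0.82) had an edgeR adjusted p of 0.168, or 0.0184 with scaling by library size only (0.0184 to 0.283 over its alternatives). Frzb and Sfrp5 were not tested, with at most 19 counts in a library. Of 8 fibroblast markers 7 were higher in QZ1-hi, none of them was at 0, and their sum was highest in library 3 of each population. Sfrp4 was highest in the same libraries, whereas Sfrp2 was lowest in library 3 of each population and Sfrp1 was highest in library 1. Pericyte markers, 4 of 8 higher, summed to 106 to 214 CPM in QZ1-hi and 10.03 to 36.3 CPM in QZ1-lo. Mesothelial markers, 4 of 4 higher in QZ1-hi, summed to 268 CPM in QZ1-hi library 2, to 38.4 to 66.1 CPM in the other QZ1-hi libraries and to 5.93 to 36.5 CPM in QZ1-lo, where library 2 was again the highest. The part of any of these cells in the SFRP, Rspo1, Wnt2b and Wnt4 values was not tested.

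**Figure D3:**
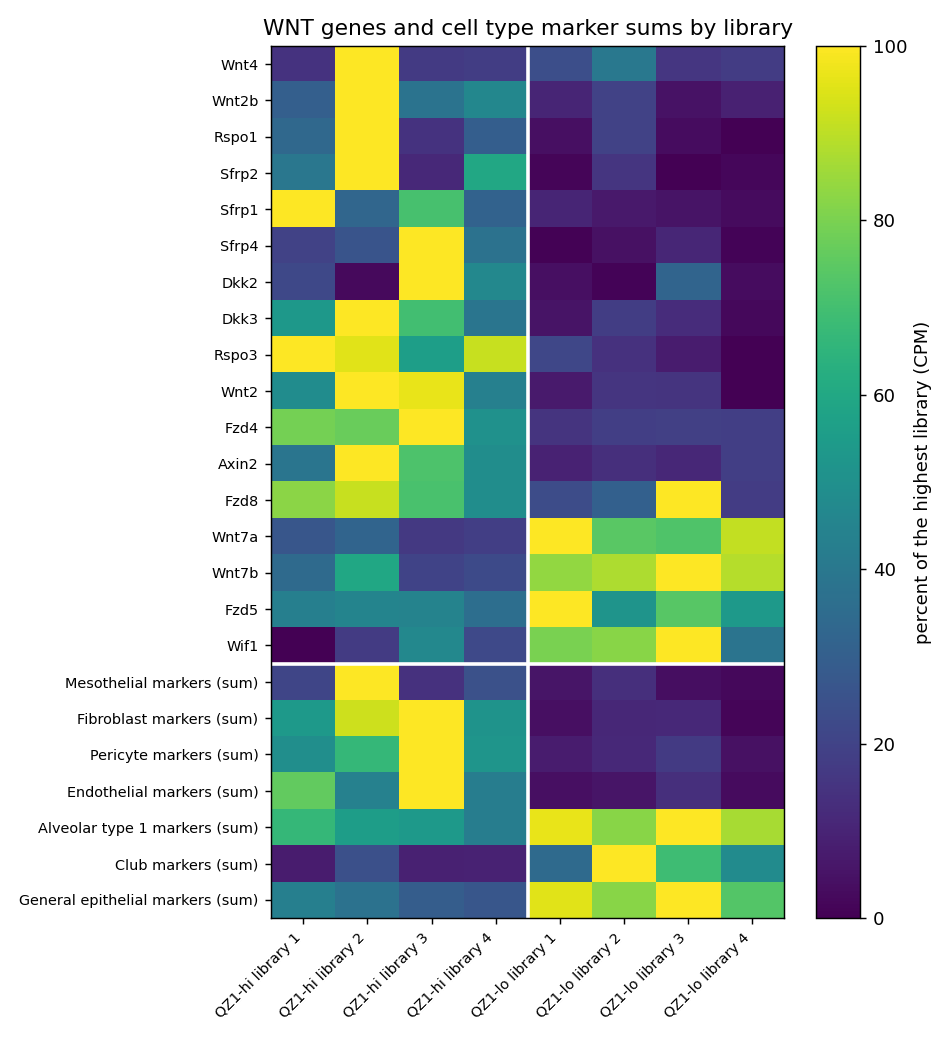
Level of 17 WNT genes (above the white line) and summed level of 7 lists of cell type markers (below it) in each library, as a percentage of the library with the highest CPM in that row. QZ1-hi library 2 is the brightest for Wnt4, Wnt2b, Rspo1, Sfrp2, Dkk3 and the mesothelial sum. QZ1-hi library 3 is the brightest for Fzd4, Sfrp4, Dkk2 and the fibroblast, pericyte and endothelial sums. Wnt7a, Wnt7b, Fzd5 and Wif1 are brightest among QZ1-lo libraries.

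Of the Dickkopf genes, Dkk3 was higher in QZ1-hi. Dkk3 is a divergent member of the family whose action on WNT signaling depends on the cell. It read 20.6, 38.5, 26.8 and 14.9 CPM in QZ1-hi and 1.97, 6.92, 4.96 and 0.778 CPM in QZ1-lo, without overlap. This gave a log2 fold change of 2.79 (SE 0.54, edgeR adjusted p = 0.00455). Dkk2, which binds LRP5 and LRP6, varied widely within each population, from 0.593 to 24.2 CPM in QZ1-hi and from 0.203 to 7.85 CPM in QZ1-lo. Its log2 fold change of 2.07 (SE 1.06) did not pass, with an edgeR adjusted p of 0.230. Leaving out QZ1-lo library 3, which held the 7.85 CPM, gave 3.96 with an edgeR adjusted p of 0.0241, and leaving out QZ1-hi library 3, which held the 24.2 CPM, gave 1.19 with an edgeR adjusted p of 0.557 (0.0241 to 0.557 over its alternatives). Dkk1 and Dkk4, the other LRP blockers, had at most 3 counts in a library. Fzd10os, the antisense transcript, had at most 19.

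Axin2, widely used as a reporter of canonical WNT signaling, was higher in QZ1-hi. It read 7.29, 18.8, 13.5 and 9.24 CPM in QZ1-hi and 1.79, 2.56, 2.06 and 3.48 CPM in QZ1-lo. The lowest QZ1-hi library was above the highest QZ1-lo library, and the log2 fold change was 2.31 (SE 0.34, edgeR adjusted p = 0.000975), or 4.94-fold. It kept the call without each library, with log2 fold changes of 2.00 to 2.51. Gm11670 on the opposite strand covers 3.80% of its exons.

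Levels can be compared between genes only per length, as CPM per kb of annotated exon. On that scale Fzd7 was the highest of the 50 genes in both populations, with means of 8.95 ± 1.81 and 5.83 ± 0.977 in QZ1-hi and QZ1-lo (here and below ± SD of 4 libraries), followed in both by Lrp5 at 7.88 ± 2.20 and 5.53 ± 0.921. In QZ1-hi the next were Fzd4 at 7.53 ± 1.99, Dkk3 at 7.499 ± 3.01, Fzd1 at 7.15 ± 1.94, Sfrp1 at 6.41 ± 3.59 and Lrp6 at 6.20 ± 0.407. Neighbours in that order differed by less than the SD of either. In QZ1-lo the order went on with Lrp6 at 5.46 ± 0.156, Fzd5 at 4.78 ± 1.53, Fzd6 at 4.67 ± 0.735 and Wnt7a at 4.26 ± 0.666, with steps smaller than the larger SD of each pair of neighbours. Fzd4 stood at rank 3 in QZ1-hi and at rank 10 in QZ1-lo, with 1.75 ± 0.180 in the latter. The ligand with the highest level per kb was Wnt2b in QZ1-hi, at 3.56 ± 2.09, and Wnt7a in QZ1-lo, where Wnt2b was at 0.733 ± 0.406. Wnt7a in QZ1-hi was at 1.19 ± 0.370.

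**Figure D4:**
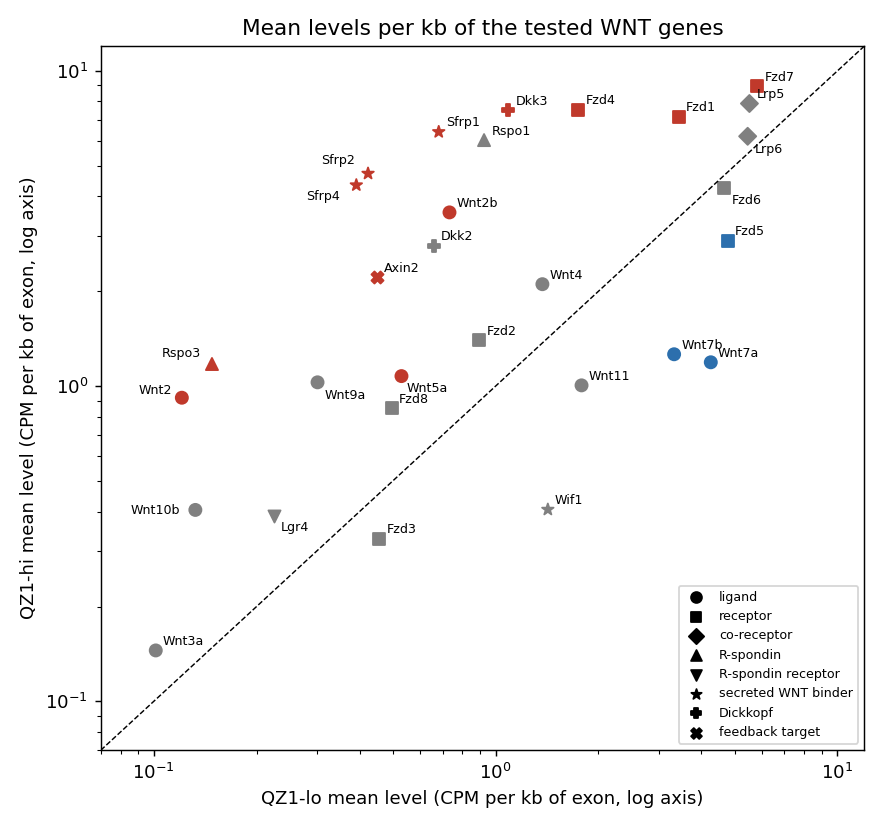
Mean level of each tested WNT gene in QZ1-lo (x axis) and QZ1-hi (y axis), as CPM per kb of exon on log axes, with the marker shape giving the role and the dashed line marking equal levels. Red genes were called higher, blue lower and grey neither, and Fzd7, Lrp5 and Lrp6 sit near the line at the top while Sfrp1, Dkk3 and Fzd4 lie far above it.

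A list of 64 other genes of the pathway, also chosen with earlier results of these data known, gave the surroundings of these results. Of them 60 were tested, 14 were higher in QZ1-hi, 5 were lower and 41 did not pass (31.7% called, where all genes gave 18.1%), and the median log2 fold change was -0.03. With scaling by library size only the list gave 10 higher and 15 lower. Without QZ1-lo library 4 it gave 9 higher. Lower calls fell to 3 without QZ1-hi library 2 or 4 or QZ1-lo library 1 or 4 and to 2 without QZ1-lo library 2 or 3.

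The calls are given by role as counts, with no test between roles. Of 10 tested genes listed as other receptors and co-receptors, outside the Fzd and Lrp families, 5 were higher and 1 was lower. The lower one was Rnf43, at -1.02 on the log2 scale (SE 0.24, edgeR adjusted p = 0.0134). Rnf43 and Znrf3, which is on the same list, encode the ubiquitin ligases that remove Frizzled and are not themselves receptors for WNT. Znrf3 did not pass, at -0.16 (edgeR adjusted p = 0.710). Both are named here after their values were seen. Adgra2 and Reck, which together let WNT7 ligands signal to endothelial cells of the brain, had log2 fold changes of 3.14 (SE 0.43, edgeR adjusted p = 0.000680) and 2.63 (SE 0.47, edgeR adjusted p = 0.00275). Adgra2 was at 8.94 to 37.1 CPM in QZ1-hi and 1.27 to 3.44 in QZ1-lo, and Reck at 4.28 to 16.4 and 0.614 to 2.32 CPM. Both were thus higher in the population in which Wnt7a and Wnt7b were lower. Tspan12, a partner of FZD4 in Norrin signaling, was at 10.6 to 20.0 CPM in QZ1-hi and 3.97 to 6.37 in QZ1-lo, with a log2 fold change of 1.61 (SE 0.25, edgeR adjusted p = 0.00134). Ndp, the gene of Norrin itself, had 3 counts over the QZ1-hi libraries and 2 over the QZ1-lo libraries.

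Of the 8 tested target and feedback genes, 3 were higher in QZ1-hi. Nkd1 and Nkd2, which bind Dishevelled and dampen WNT signaling, were among them. Nkd1 was at 56.0 to 117 CPM in QZ1-hi and 21.2 to 29.2 CPM in QZ1-lo, with a log2 fold change of 1.79 (SE 0.21, edgeR adjusted p = 0.000374). Nkd2 was at 5.30 to 13.6 CPM and 0.0409 to 1.77 CPM, with a log2 fold change of 3.19 (SE 0.69, edgeR adjusted p = 0.00793). The other 5 did not pass, with log2 fold changes of -0.29 for Myc, -0.37 for Ccnd1, -0.15 for Sp5, 0.71 for Bambi and 1.28 for Tnfrsf19, and the median of the 8 was 0.99. The 5 are named here after their values were seen. None of the 12 tested genes of the nuclear step passed in either direction, and of the 15 tested genes of the cytoplasmic step none was higher and 3 were lower. Ctnnb1, the gene of beta-catenin, also named after its values were seen, was at a mean of 365 CPM in QZ1-hi and 387 CPM in QZ1-lo, with a log2 fold change of -0.08 (SE 0.10, edgeR adjusted p = 0.662).

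Planar cell polarity genes gave 3 higher calls and 1 lower among 9. Prickle1 and Prickle2, cytoplasmic proteins of that system, were at 21.8 to 32.4 and 47.2 to 106 CPM in QZ1-hi and at 0.982 to 5.83 and 14.5 to 26.1 CPM in QZ1-lo, with log2 fold changes of 2.96 (SE 0.45, edgeR adjusted p = 0.00114) and 1.86 (SE 0.28, edgeR adjusted p = 0.00111). Celsr1, the cadherin of the same system in epithelia, was lower, at 40.3 to 63.4 CPM in QZ1-hi and 92.4 to 114 CPM in QZ1-lo (log2 fold change -0.84, SE 0.15, edgeR adjusted p = 0.00310). Of the 4 genes listed under secretion 2 were higher, Mesd and Notum, and neither of these carries WNT out of the cell. Mesd, the chaperone that LRP5 and LRP6 need to fold, had a log2 fold change of 0.86 (SE 0.16, edgeR adjusted p = 0.00383). Notum, scarce at 0.715 to 3.21 CPM in QZ1-hi and 0 to 0.328 CPM in QZ1-lo, had 4.23 (SE 1.10, edgeR adjusted p = 0.0205). Porcn and Wls did not pass, at -0.82 (edgeR adjusted p = 0.136) and -0.13 (edgeR adjusted p = 0.528). Notum, Porcn and Wls are named here after their values were seen. Igfbp4, a binding protein of insulin-like growth factors that also inhibits LRP6, was at 160.4 to 397 CPM in QZ1-hi and 5.69 to 46.5 CPM in QZ1-lo, with a log2 fold change of 3.38 (SE 0.53, edgeR adjusted p = 0.00133).

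**Figure D5:**
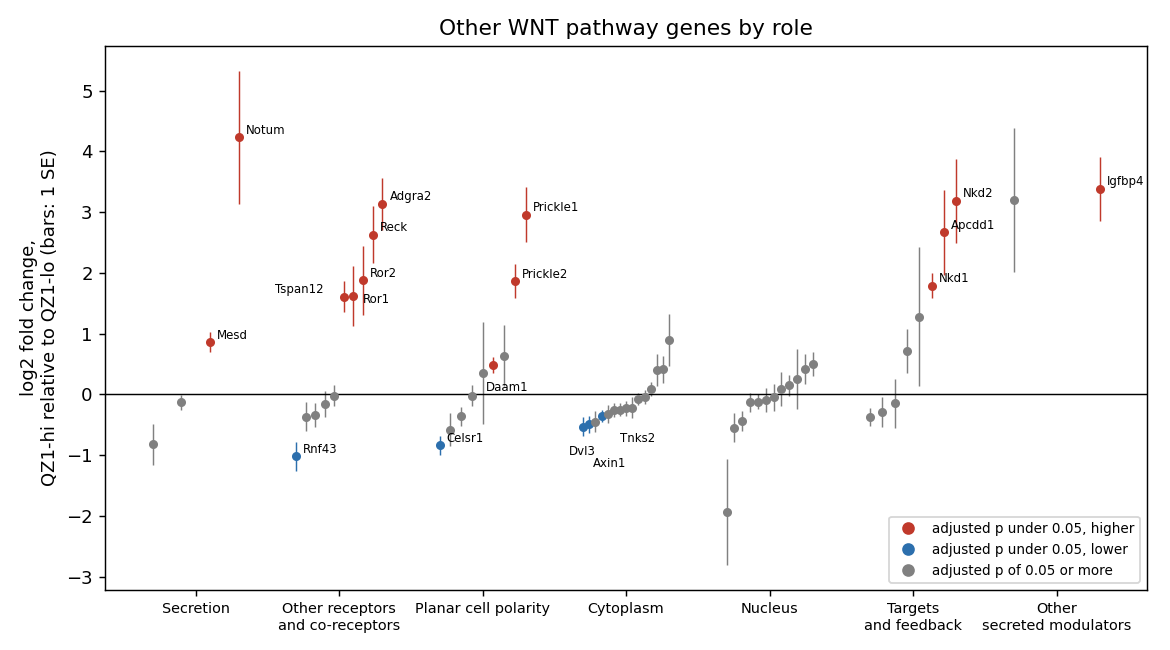
Log2 fold change, QZ1-hi relative to QZ1-lo, of the 60 tested other genes of the WNT pathway by role, with bars of 1 SE and the names of the 19 called genes. Red points (14 higher) lie among receptors, polarity genes, the genes listed under secretion, targets and secreted modulators. Those under secretion are Mesd and Notum, while Porcn and Wls are grey. Blue points (5 lower) include 3 cytoplasmic genes, and the nuclear genes are grey throughout.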

How the data were processed

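RNA of 4 QZ1-hi and 4 QZ1-lo sorted populations was sequenced from stranded total RNA libraries (SMARTer kit, NextSeq500). The authors counted reads per gene with Rsubread and deposited raw counts, not normalized, for 27179 Entrez genes, and the submitters' processing notes name mm10 and DESeq2. The aligner, annotation and strand setting are not given in the sources used here. Symbols were found for 25293 genes, 25275 from RefSeq and 18 from GENCODE M21, and 1886 had none. The test was run with edgeR 4.0.16 under R 4.3.3 (filterByExpr with a minimum count of 10 and a minimum total of 15, TMM factors of 0.660 to 1.35, quasi-likelihood test, Benjamini-Hochberg adjustment over 15583 genes, threshold 0.05). SE was computed from each fitted change and its F statistic (absolute change over root F). Fold changes are fitted values, and the common dispersion was 0.113. DESeq2 1.42.0, limma 3.58.1, other scalings and filters, and each library left out in turn were the alternatives. Depth was compared by a two-sided exact permutation test.

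All members could be named. Values in every library are given for members with an adjusted p under 0.05 or a mean of at least 10 CPM, with Dkk2, Rspo1, Wif1 and other members given by range or value where a library decides them. Of the other pathway genes the 10 with the smallest p are named, together with some others named after their values were seen. The members, the pathway genes and the marker lists were chosen with earlier results of these data known. The labels do not say how the replicates were taken beyond biological replicates, so p-values measure the spread between these libraries.

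The scripts were tested on simulated data with known changes. There edgeR recovered 34 of 100 genes changed by 1 on the log2 scale and 77 of 100 changed by 2, with 2 false calls. A gene that did not pass may therefore still differ. Exon lengths, opposite-strand genes and shared stretches of 50 bases came from GENCODE M21 on GRCm38, and start regions from RefSeq on GRCm38.p6.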

Additional observations from a re-analysis of the deposited data

Results flagged for a closer look

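In 6 of 60 groups of 4 libraries the highest or lowest library stood apart from the other 3 by Dixon's test at the 95% level. Chance gives about 1 such group in 20. QZ1-hi library 2 had Wnt4 at 23.6 CPM, where the others had 3.43 to 4.29. QZ1-lo library 3 stood apart for 3 genes, with Dkk2 at 7.85 CPM (others 0.203 to 0.954), Fzd8 at 6.91 CPM (others 1.23 to 2.12) and Fzd1 at 18.2 CPM (others 12.7 to 13.6). QZ1-lo library 2 had Sfrp2 at 3.01 CPM, where the others had 0.0724 to 0.327. Fzd4 was lowest in QZ1-lo library 1, at 9.93 CPM, and the others had 12.2 to 12.5. The endothelial, pericyte, smooth muscle and fibroblast marker sums of QZ1-lo were all highest in library 3, and the mesothelial sum was highest in library 2. The part of these cells in the values was not tested.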

How the results depend on the processing

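Of 468 values of the 30 tested genes under the alternatives, 428 kept their direction and their side of the threshold, 26 lost the call, 10 gained it and 4 changed sign. For 13 genes all alternatives kept both. The sign changed for Lrp6 (-0.28) and Wnt3a (-0.01) with scaling by library size only, where the median of all genes was -0.44 and both stayed above it, for Wnt3a without QZ1-hi library 4 (-0.19) and for Wnt4 without QZ1-hi library 2 (-0.57), and none of these passed the test. With each library left out in turn, Wnt3a ranged from -0.19 to 1.10 and Wnt4 from -0.57 to 0.96. Scaling by library size only gave 5 members lower in place of 3, 15 other pathway genes lower in place of 5, and 882 higher and 2509 lower over all genes in place of 1540 and 1280. At an adjusted p under 0.01 there were 6 members higher, 9 other pathway genes higher and 1 lower, and 902 higher and 665 lower over all genes. With each library left out in turn, members gave 8 to 15 higher and 2 to 3 lower, other pathway genes 9 to 14 higher and 2 to 6 lower, and all genes 1136 to 1506 higher and 938 to 1201 lower. Fzd5 lost its call with limma, Sfrp2 with robust shrinkage, and Fzd8 gained one with limma (1.39), Rspo1 with no filter (2.71). With at least 10 counts in every library, 10 of the 30 genes were not tested. DESeq2 gave no adjusted p for Wnt4. The cause of these changes was not tested. No paired analysis was possible because no source used here states which libraries of the 2 populations share a mouse. Some values ranked alike by library number. Among them, Wnt2, Wnt2b, Wnt4, Rspo1, Sfrp2, Dkk3 and the mesothelial sum were highest in library 2 of each population. Sfrp1 and Rspo3 were highest in library 1 of each. Sfrp4, Dkk2, Fzd4 and the fibroblast, pericyte and endothelial sums were highest in library 3 of each. Others, such as Axin2, Fzd1 and Fzd7, were highest in libraries of different number. The numbers only follow the order of the samples, and whether they track mice is not stated. Depth limits what can be said of the 20 members below the filter.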

Other observations

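Of the 20 WNT genes too low to test, Wnt1 had 11 counts in QZ1-lo library 1 and none in any other library. Wnt8b had 6 and 11 counts in QZ1-hi libraries 2 and 4 and none elsewhere, and Wnt9b had 5 and 7 counts in QZ1-hi libraries 3 and 4 and none elsewhere. Fzd10 had 31 counts in QZ1-lo library 3 and at most 13 in any other library. Frzb, a secreted WNT binder, had 16, 19, 3 and 6 counts in QZ1-hi and 0, 5, 11 and 0 in QZ1-lo, so that the populations overlapped.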
